A study of Mus musculus with 24 samples.

Results

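The heme synthesis pathway and the reductase of cytochromes P450 were followed through mouse liver in 9 genes: Alas1, Alad, Uros, Urod, Cpox, Ppox and Fech of heme synthesis, Hmox1 of heme breakdown, and Por, the P450 reductase. They were found by symbol among the gene names of the deposited table, where they occupied 9 of 31027 loci, each carrying 1 gene name. Alas1 and Por were chosen by their higher level in livers lacking JNK1 than in control livers, so that difference is given as a description with no test, and the other 7 were taken for their pathway. The liver RNA came from C57BL/6J mice that ate chow or high fat food during 16 weeks. All mice carried the AlbCre transgene, in which the albumin promoter drives Cre recombinase in hepatocytes, so the other liver cells keep the floxed genes. The control carried AlbCre alone, and the other genotypes were Jnk1flox/flox (called Jnk1), Jnk2flox/flox (Jnk2) and both together (Jnk1Jnk2). Each of the 8 groups had 3 libraries. The labels do not say whether these were separate mice, so p-values measure only the spread between the libraries, which may be technical.

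Heme is built from glycine and succinyl-CoA by a chain of enzymes that starts in the mitochondrion, passes through the cytosol and ends in the mitochondrion. ALAS1 makes the first precursor and is the rate-limiting step in liver, where heme represses it and where much of the heme goes to cytochromes P450. POR passes electrons from NADPH to most of those P450 enzymes and to heme oxygenase, which opens the heme ring for degradation.

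The promoters of the 2 picked genes are shown because both stood high in the same genotype, with matches to motifs searched on both strands in capitals. For Por, the RefSeq promoter table (GRCm38.p6) gave the stretch at chr5:135688895-135689035, plus strand, that lies before any annotated exon.
Por: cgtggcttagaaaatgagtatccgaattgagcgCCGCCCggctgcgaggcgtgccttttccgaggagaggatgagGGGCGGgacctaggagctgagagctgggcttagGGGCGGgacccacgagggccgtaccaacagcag
The capitals mark the GC box, GGGCGG, which occurs 4 times in the 250 bases before the Por start and in 32.7% of the 32851 promoters of the table; it also occurs at Alad, Urod, Uros and 1 of the 2 listed Alas1 starts. For Alas1, 250 and 235 of the 250 bases before the 2 listed starts lie in annotated exons. Only the 2 matches to the NRF1 motif are therefore shown, each with 5 bases on either side. They are at chr9:106247940-106247959 and chr9:106247911-106247930 on the minus strand. Both lie before the start at 106247730, and the 250 bases before the start at 106247954 held no match. The deposited Alas1 locus ends at 106247954, so the second stretch lies inside it and the first spans its end.
Alas1, first match: ggcgcGCGCGTGCGCgcggc
Alas1, second match: ccaagGCGCATGCGCggcgg
That motif occurred in 3.74% of promoters and, among the Alas1, Alad, Uros, Urod, Cpox, Ppox and Por promoters searched, also at Uros. The E-box CACGTG, found in 6.02% of promoters, occurred at Alad, Urod and Uros. The AP-1 motif TGANTCA, the D-box TTANNTAA, the direct repeat 4 motif, the antioxidant response element TGACNNNGC and the TATA box TATAAA had no match in these windows.

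Values are FPKM, that is, fragment numbers divided by the length of the transcript and by the library's mapped fragments, so levels can be set beside each other between genes. Library FPKM sums ran from 634849 to 873399, and the relative depth from 0.3 to 1.0 of the deepest library. The 3 high fat Jnk1Jnk2 libraries stood apart: their sums were at least 849038 against at most 734352 elsewhere, and long transcripts read low in them. Spearman's rho between a locus's deviation from its mean and transcript length was -0.645 to -0.591 there and -0.211 to 0.421 in the other 21 libraries. Calls of named genes as deposited that use those libraries are therefore given with the length trend removed as well. Size factors moved the median difference of all loci by over 0.1 in 2 comparisons, from -0.14 to -0.02 in high fat Jnk1Jnk2 against Jnk2 and from 0.10 to -0.03 for the diet in Jnk2. They also moved the share of calls that were higher from 31.6% to 48.4% in the first of these and from 75.5% to 45.7% in the second. That share moved from 35.0% to 51.4% in the diet interaction, from 61.9% to 44.5% for the diet in control and from 38.3% to 49.7% in high fat Jnk1Jnk2 against control. Mapk8, the gene of JNK1, read 0.845 to 2.47 FPKM in the 12 libraries lacking it and 3.38 to 5.77 in the others, and Mapk9, the gene of JNK2, read 4.33 to 7.79 against 9.01 to 12.0. The hepatocyte markers Ttr, Apoa1 and Ahsg were at least 2229, 5260 and 3190 FPKM in every library, while Alb and Serpina1a were listed at 0 in 4 and 7 libraries and were not used as a check. The other listed markers were uneven. Apob, Cps1 and Tat averaged 120, 102 and 270 FPKM in high fat Jnk1Jnk2, against 404, 374 and 389 in high fat control. A second Cps1 locus averaged 582 against 563 FPKM there, Ttr 5604 against 3603 and Apoa1 11480 against 5841. None of the 9 genes was listed at 0 in any library, and all 9 passed the minimum mean of 1 FPKM used for testing.

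Alas1 and Por were the most abundant of the set, with mean levels over the 24 libraries of 277.9 and 270.3 FPKM. Alad, Cpox, Urod and Fech followed at 84.8, 74.6, 52.5 and 49.6 FPKM, then Hmox1 at 16.6, Uros at 12.6 and Ppox at 6.80. Alas2, the erythroid form of the first enzyme, averaged 39.5 FPKM. The highest library exceeded the lowest 6.09-fold for Alas1 and 3.91-fold for Por, but 1.57-fold for Ppox and for Fech, the last enzyme, which inserts iron. Exons of Ppox share 17.5% of their bases with B4galt3 on the other strand and exons of Alas1 share 7.53% with 4930500F10Rik. Whether strand was used in the counting is not given in the sources used here, so reads of those pairs may not be separable.

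**Figure D1:**
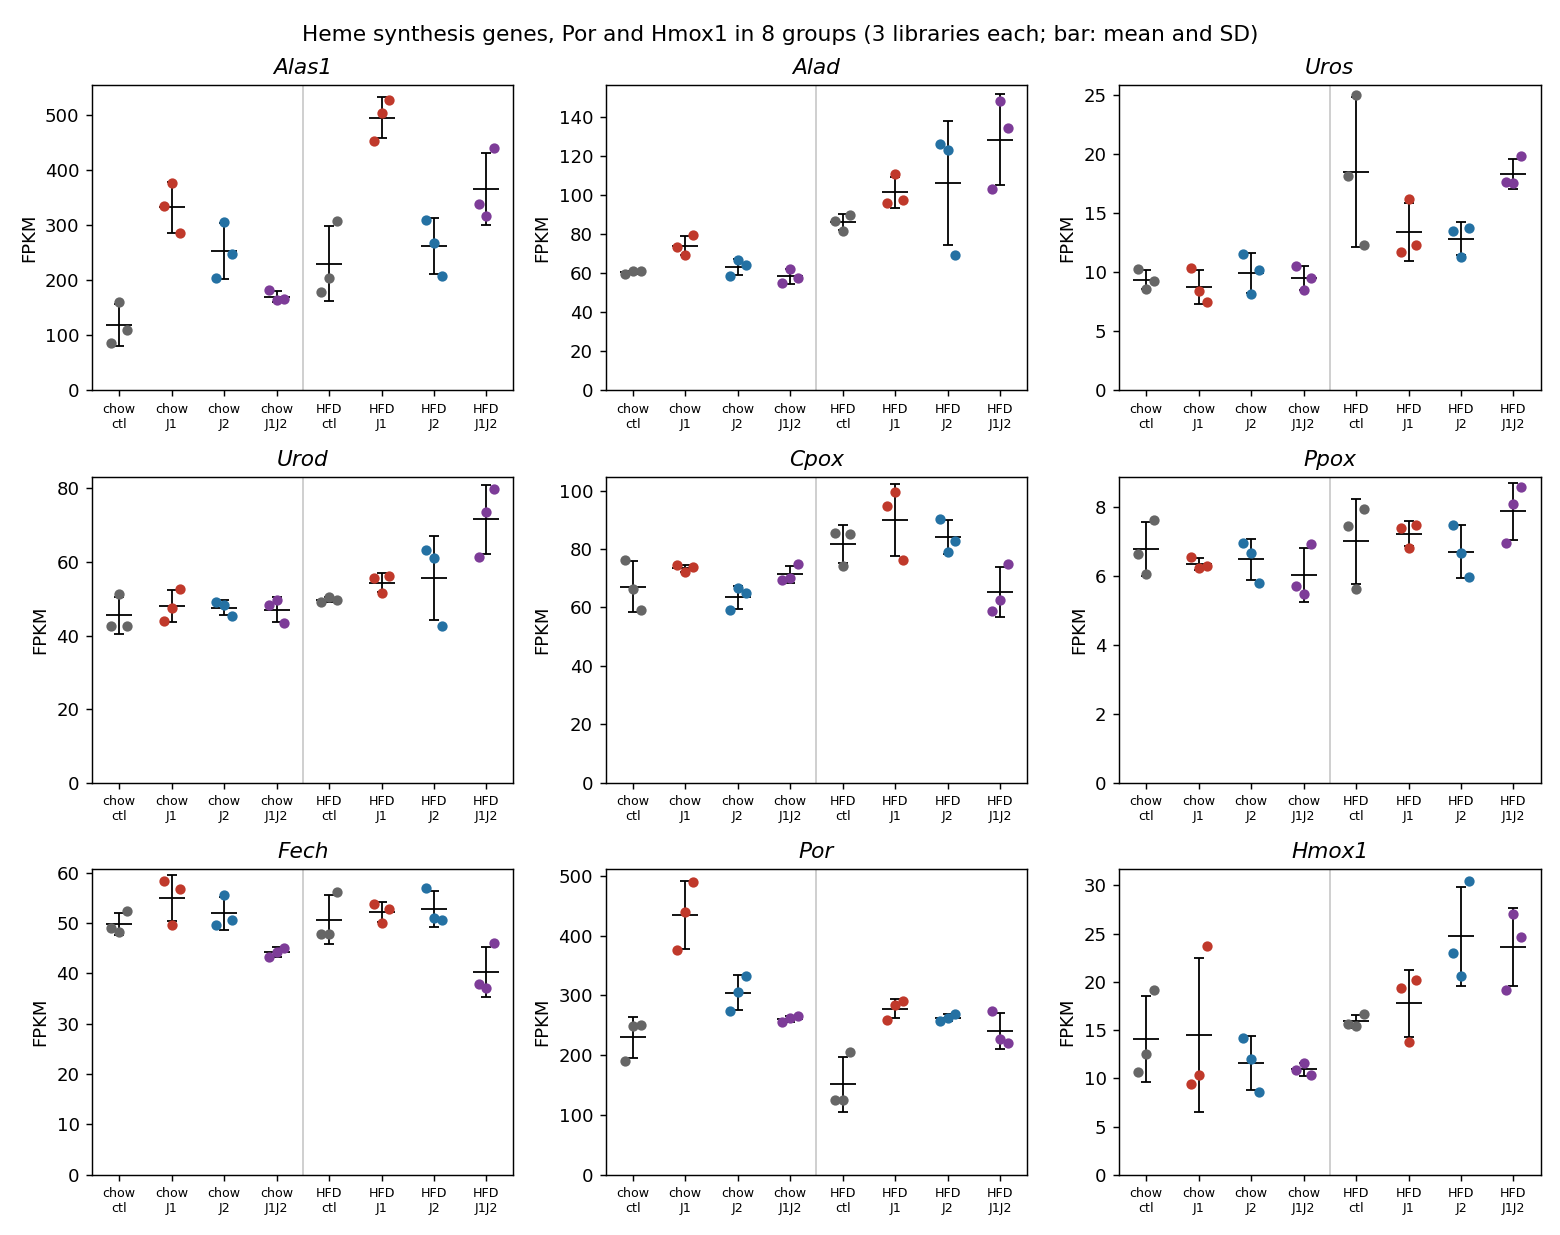
FPKM (y axis, from 0) of the 9 genes in 24 libraries, with chow groups to the left of the grey line and high fat (HFD) groups to the right; ctl is control, J1 Jnk1, J2 Jnk2 and J1J2 Jnk1Jnk2, dots are libraries and bars the mean and SD. Alas1 was highest in high fat Jnk1 (453 to 526) and Por in chow Jnk1 (375.5 to 489), while Fech was lowest in both Jnk1Jnk2 groups.

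On chow, Alas1 read 86.4, 160.0 and 109 FPKM in control and 334, 376 and 285 in Jnk1. Chow Jnk2 libraries held 204.5, 305 and 248 FPKM of it, and those of chow Jnk1Jnk2 182, 163 and 165. Control and Jnk1 libraries did not overlap, a separation favoured by the choice of Alas1 for this difference. The livers lacking both kinases lay between control and either single knockout. On high fat, Alas1 read 179, 204 and 307 FPKM in control and 453, 504 and 526 in Jnk1. High fat Jnk2 libraries held 309, 267 and 208 FPKM, and those of high fat Jnk1Jnk2 338, 317 and 439. Ordered by mean, the groups ran from chow control (118.5 FPKM) through chow Jnk1Jnk2, high fat control, chow Jnk2, high fat Jnk2, chow Jnk1 and high fat Jnk1Jnk2 to high fat Jnk1 (494 FPKM). Only the lowest and the highest group, both of genotypes used in choosing Alas1, had ranges clear of their neighbour in that order.

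Por read 190, 249 and 251 FPKM in chow control and 375.5, 440 and 489 in chow Jnk1. Chow Jnk2 libraries held 274, 306 and 332 FPKM of it, and those of chow Jnk1Jnk2 255, 262 and 265, all above the control libraries. On high fat, Por read 125, 125 and 205 FPKM in control and 259, 284 and 290.1 in Jnk1. High fat Jnk2 libraries held 258, 262 and 269 FPKM, and those of high fat Jnk1Jnk2 274, 227 and 219.9. High fat control was the lowest group for Por (151.6 FPKM) and chow Jnk1 the highest (435 FPKM). Only chow Jnk1, of a genotype used in choosing Por, was clear of its neighbour.

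Set side by side with no test, the Jnk1 difference from control on the log2(FPKM + 1) scale was 1.52 for Alas1 and 0.92 for Por on chow, and 1.14 and 0.91 on high fat. For the other 7 genes it ran from -0.10 (Uros) to 0.29 (Alad) on chow and from -0.40 (Uros) to 0.23 (Alad) on high fat. The Jnk2 difference from control was 1.11 for Alas1 and 0.41 for Por on chow, and 0.20 and 0.83 on high fat. The Jnk1Jnk2 difference was 0.56 for Alas1 and 0.19 for Por on chow, and 0.69 and 0.70 on high fat. All these differences share the control libraries of their diet.

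Comparing Jnk1Jnk2 with Jnk2 asks what losing JNK1 did where JNK2 was already gone, in libraries that took no part in choosing Alas1 and Por. On chow neither gene was higher without JNK1. Alas1 was 0.55 ± 0.22 (SE) lower on the log2 scale, with every Jnk1Jnk2 library under every Jnk2 library, and Por was 0.22 ± 0.16 lower, again without overlap. Both had an adjusted p of 1 by limma-trend with Benjamini-Hochberg adjustment over all tested loci. The 95% intervals of the difference were -1.01 to -0.09 for Alas1 and -0.55 to 0.11 for Por. How many of all tested loci separate into groups without overlap was not counted, so such separations are given as descriptions throughout. None of the 9 genes was called, where 0.0473% of all tested loci were; 453 of 10562 loci, and of the 9 genes Alas1 and Fech, had an unadjusted p under 0.05. Fech stood at 49.6, 55.6 and 50.6 FPKM without JNK2 and at 43.3, 44.3 and 45.1 without both kinases, a difference of -0.23 ± 0.09.

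On high fat, 4 of the 9 genes were called for the same comparison, with 48.5% of all tested loci called (15.3% higher, 33.2% lower) and a median difference of all loci of -0.14. With size factors 6 were called, against 46.2% of all loci, as Alad (0.45, adjusted p = 0.0329) and Ppox (0.33, adjusted p = 0.00959) joined Alas1, Uros, Urod and Fech, while Cpox (-0.22, adjusted p = 0.117) did not pass. Ppox was also called after quantile normalization (0.36), and Alad when 1 of 3 libraries was left out, Jnk2 replicate 1 or 2 or Jnk1Jnk2 replicate 1. With the length trend removed, neither Alad (0.036, adjusted p = 0.877, limma-trend) nor Ppox (0.17, adjusted p = 0.226, limma-trend) was called. Uros, which closes the ring, read 13.6, 11.3 and 13.8 FPKM in Jnk2 and 17.7, 17.6 and 19.9 in Jnk1Jnk2, and rose by 0.48 ± 0.18 (adjusted p = 0.034, limma-trend). Urod, the next enzyme, rose by 0.37 ± 0.13 (adjusted p = 0.0201, limma-trend), from 63.2, 61.0 and 42.5 FPKM to 61.3, 73.6 and 79.9, with overlapping groups. The Urod call ended with array weights (0.22, adjusted p = 0.128), after quantile normalization (0.24, adjusted p = 0.0776) and when only the groups compared were fitted (adjusted p = 0.159). Cpox, which acts after Urod, fell by 0.36 ± 0.11 (adjusted p = 0.0121, limma-trend), from 90.5, 78.9 and 82.9 FPKM to 58.7, 62.6 and 75.0. Fech fell by 0.38 ± 0.09 (adjusted p = 0.0022, limma-trend), from 56.9, 51.0 and 50.6 FPKM to 37.9, 37.1 and 46.1. For Uros, Cpox and Fech the groups did not overlap.

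Alas1 was 0.48 ± 0.22 higher in high fat Jnk1Jnk2 than in high fat Jnk2, without overlap of the groups, and was not called (adjusted p = 0.0738, limma-trend). With the length trend removed it was called, at 0.74 ± 0.21 (adjusted p = 0.0149, limma-trend), and it was also called with size factors at 0.63 (adjusted p = 0.0199). The 95% interval as deposited was 0.03 to 0.94. Por differed by -0.13 ± 0.16 (adjusted p = 0.496, limma-trend; 95% interval -0.46 to 0.19), with overlapping libraries, and by 0.047 with the length trend removed.

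The direction of the 4 calls went with transcript length. Urod and Uros, with median transcripts of 1489 and 1563.5 bases, were higher, and Fech and Cpox, with 2630 and 3097 bases, were lower. With the length trend removed, 2 of the 9 genes were called, against 24.3% of all loci: Alas1 and Fech (-0.20, adjusted p = 0.0471, limma-trend). Uros (0.35, adjusted p = 0.191), Urod (0.21, adjusted p = 0.141) and Cpox (-0.10, adjusted p = 0.537) were not called by that test. Alas1, at 3089 bases, is about as long as Cpox, and its estimate had the opposite sign in both forms of the data. The Uros call also ended without the filter on low values (adjusted p = 0.063), and the Cpox call when only the groups compared were fitted (adjusted p = 0.0616). Leaving out 1 library ended calls as well: that of Uros in 5 of 6 cases, that of Urod without Jnk2 replicate 3, Jnk1Jnk2 replicate 2 or Jnk1Jnk2 replicate 3, and that of Cpox without replicate 1 of either genotype.

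**Figure D2:**
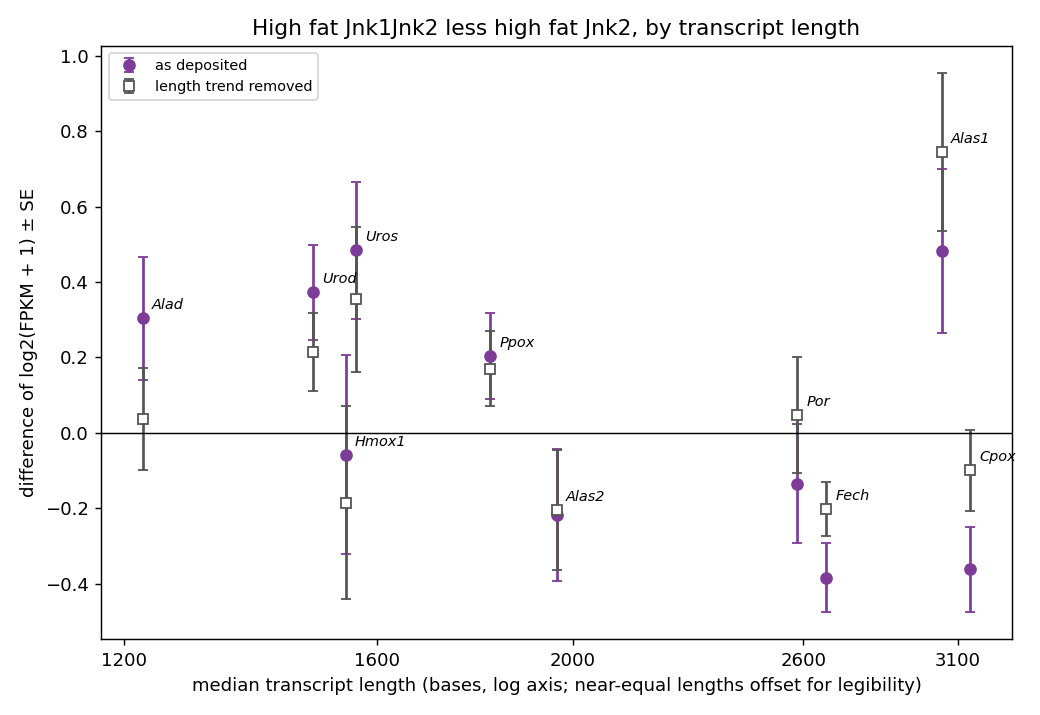
Difference of log2(FPKM + 1) between high fat Jnk1Jnk2 and high fat Jnk2 (y axis; bars are SE, 3 libraries per group) against median transcript length in bases (log x axis) for the 9 genes and Alas2. Filled circles are the deposited values and open squares those with the length trend removed; the short Urod and Uros were higher and the long Cpox and Fech lower, while the long Alas1 was higher.

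The difference between the diets in what added JNK1 loss did was tested directly, and 2 of the 9 genes were called against 28.9% of all tested loci (median of all loci -0.12). For Alas1 the difference was 1.03 ± 0.31 (adjusted p = 0.0196, limma-trend). The 2 differences behind it, Jnk1Jnk2 less Jnk2, were -0.55 on chow and 0.48 on high fat, neither of them called. The interaction was 1.28 (adjusted p = 0.0139) with the length trend removed, but 0.71 (adjusted p = 0.119) after quantile normalization and 0.88 (adjusted p = 0.0557) without high fat Jnk2 replicate 3. For Cpox it was -0.53 ± 0.16 (adjusted p = 0.0197, limma-trend) and -0.28 (adjusted p = 0.245) with the length trend removed, and it was not called with size factors either (-0.41, adjusted p = 0.0574). Por gave 0.08 ± 0.22 (adjusted p = 0.801, limma-trend; 95% interval -0.38 to 0.55), and 0.24 with the length trend removed.

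**Figure D3:**
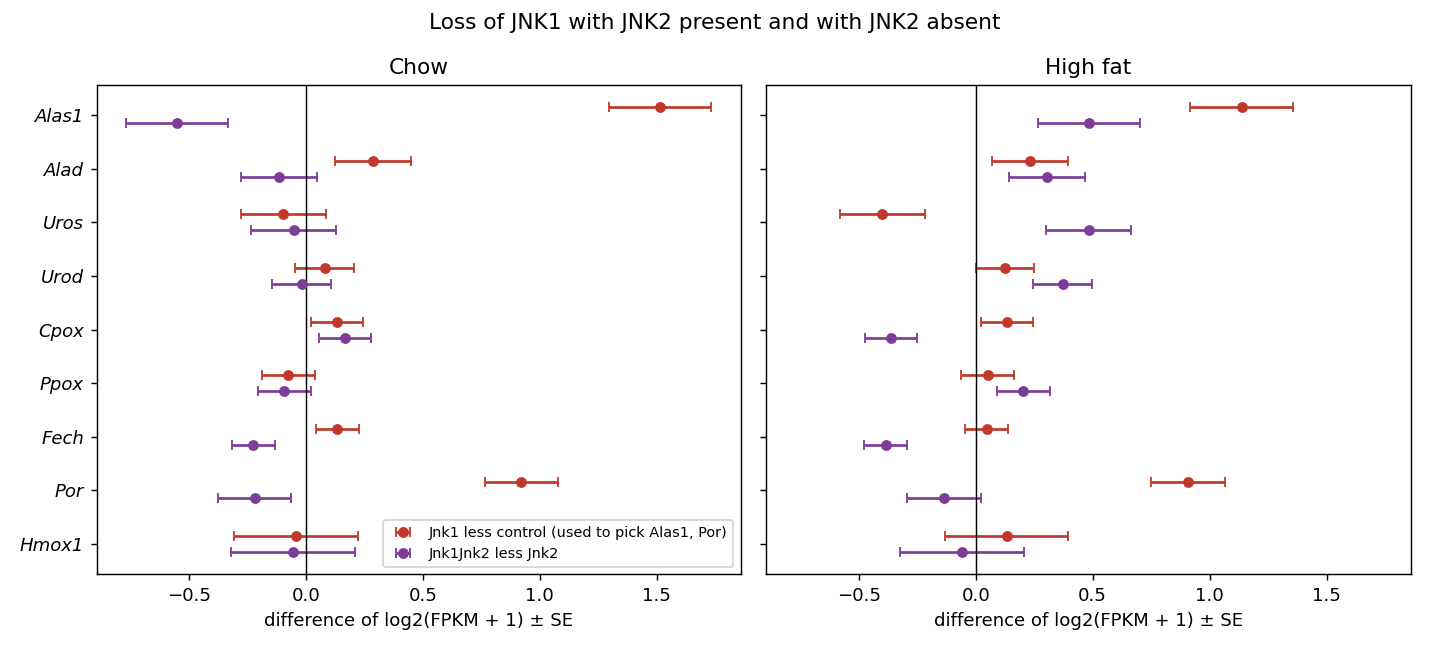
Differences of log2(FPKM + 1) with SE (x axis) for the 9 genes on chow (left) and high fat (right), with loss of JNK1 given as Jnk1 less control in red and as Jnk1Jnk2 less Jnk2 in purple, 3 libraries per group. Alas1 and Por were picked on the red values, at 1.52 and 0.92 on chow, whereas the purple values on chow were -0.55 and -0.22.

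High fat against chow was tested within each genotype that allowed it. Without JNK2, 3 of the 9 genes rose from chow to high fat, against 19.7% of all tested loci that rose, 6.39% that fell and 26.0% called in all, with a median of all loci of 0.10. Alad, the second enzyme, read 58.8, 66.7 and 64.3 FPKM on chow and 126, 123 and 69.5 on high fat, a rise of 0.69 ± 0.16 (adjusted p = 0.00454, limma-trend; 0.0965 when only the groups compared were fitted). Cpox rose by 0.40 ± 0.11 (adjusted p = 0.0135, limma-trend), which was 0.26 (adjusted p = 0.0851) with the length trend removed and 0.24 (adjusted p = 0.123) with size factors. The Cpox call also ended without chow Jnk2 replicate 1 or high fat Jnk2 replicate 1. Hmox1 read 14.2, 12.0 and 8.62 FPKM on chow and 23.0, 20.7 and 30.5 on high fat, a rise of 1.04 ± 0.26 (adjusted p = 0.00735, limma-trend) without overlap. Alas1 (0.05 ± 0.22, adjusted p = 0.90) and Por (-0.21 ± 0.16, adjusted p = 0.357) were not called.

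Without both kinases, 6 of the 9 genes rose with the diet and none fell, against 30.1% of all tested loci that rose, 26.8% that fell and 56.9% called in all. Alas1 rose by 1.08 ± 0.22 (adjusted p = 0.000385, limma-trend) and did not overlap between diets. Alad read 55.1, 62.4 and 57.6 FPKM on chow and 103, 148 and 134 on high fat, a rise of 1.11 ± 0.16 (adjusted p = 2.12e-05, limma-trend). Uros rose by 0.88 ± 0.18 (adjusted p = 0.000452), Urod by 0.59 ± 0.13 (adjusted p = 0.000634) and Ppox, which oxidizes the last intermediate before iron is added, by 0.34 ± 0.11 (adjusted p = 0.0164, limma-trend). Hmox1 read 10.9, 11.6 and 10.3 FPKM on chow and 19.2, 27.0 and 24.7 on high fat, a rise of 1.03 ± 0.26 (adjusted p = 0.00264, limma-trend). With the length trend removed, Alas1 (1.19), Alad (0.66), Uros (0.55) and Hmox1 (0.70) were called, while Urod (0.23, adjusted p = 0.0788) and Ppox (0.10, adjusted p = 0.452) were not. The Ppox call also ended when only the groups compared were fitted (adjusted p = 0.0607), and without replicate 1 or 2 of chow Jnk1Jnk2 or replicate 2 or 3 of high fat Jnk1Jnk2. Por was not called (-0.12 ± 0.16, adjusted p = 0.528, limma-trend; -0.12 with the length trend removed). After quantile normalization Por (-0.42), Cpox (-0.39) and Fech (-0.37) were called as lower, so all 9 genes were called there, against 54.7% of all loci. Cpox and Fech were not called as deposited, nor with the length trend removed (-0.026 and -0.13).

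In control livers the 7 genes that were not picked gave 2 calls for the diet, against 16.3% of all tested loci. Uros read 10.3, 8.63 and 9.31 FPKM on chow and 18.2, 25.0 and 12.4 on high fat, a rise of 0.86 ± 0.18 (adjusted p = 0.00349, limma-trend; 0.0653 when only the groups compared were fitted). Alad rose by 0.50 ± 0.16 (adjusted p = 0.0418, limma-trend), from 59.6 to 60.9 FPKM on chow to 81.7 to 89.6 on high fat, a call that ended whichever of the 6 libraries was left out (adjusted p from 0.0724 to 0.0974), without the filter on low values (0.0675) or with size factors (0.0731). As a description, Alas1 was 0.96 higher and Por 0.62 lower on high fat in control, and 0.58 higher and 0.64 lower in Jnk1. Over all 12 libraries of a diet, the median of Alad was 61.7 FPKM on chow and 100.1 on high fat, that of Uros 9.42 and 15.0, and that of Fech 49.6 and 50.3.

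**Figure D4:**
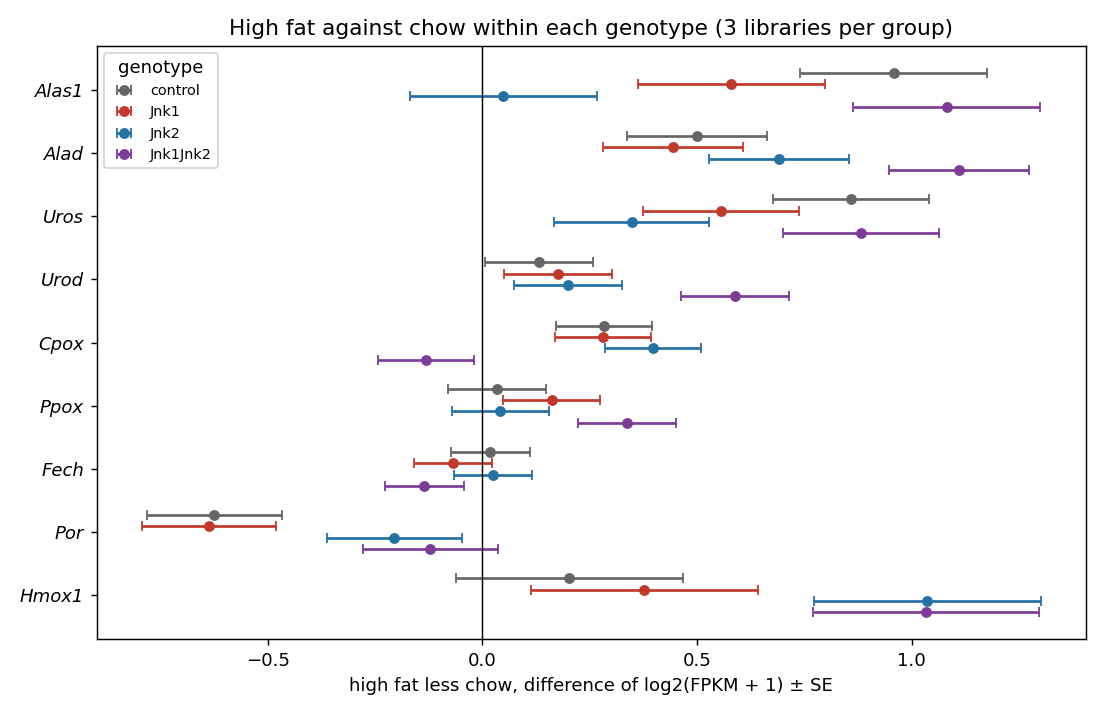
High fat less chow in log2(FPKM + 1) with SE (x axis) for the 9 genes in each of 4 genotypes (colours), 3 libraries per group. As deposited, Alad and Uros were above 0 and Por below 0 in all 4 genotypes, and the Hmox1 estimates were 1.04 in Jnk2 and 1.03 in Jnk1Jnk2 against 0.20 in control.

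Against control, the 7 genes that were not picked gave no call in chow Jnk2 (0.454% of all tested loci called; 1390 loci with an unadjusted p under 0.05, none of the 7 genes), in high fat Jnk2 (12.4% called; 2922 loci, Uros and Hmox1 among them, at an unadjusted p under 0.05) or in chow Jnk1Jnk2 (0.161% called; 1334 loci, none of the 7 genes). With array weights 3 were called in high fat Jnk2, where that setting called 26.7% of all loci: Alad (0.47), Urod (0.30) and Uros (-0.43). In high fat Jnk1Jnk2, 4 of the 7 were called, against 51.2% of all tested loci. Alad (0.56 ± 0.16) and Urod (0.51 ± 0.13) rose, and Cpox (-0.32 ± 0.11) and Fech (-0.32 ± 0.09) fell, with adjusted p from 0.00246 to 0.0226 by limma-trend. With the length trend removed, Urod (0.29, adjusted p = 0.0391) and Fech (-0.21, adjusted p = 0.0318) were called, and Alad (0.25) and Cpox (-0.11) were not. With size factors Cpox was not called (-0.21, adjusted p = 0.12), and Ppox (0.26) and Hmox1 (0.64) were. Ppox and Hmox1 were not called with the length trend removed (0.046 and 0.33). When only the groups compared were fitted, Cpox (adjusted p = 0.0834) and Fech (adjusted p = 0.0815) were not called and Hmox1 was. The Alad call also ended without high fat Jnk1Jnk2 replicate 2, and the Cpox call when any of 4 of the 6 libraries was left out.

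Dbp and Arntl, a clock output gene and a core clock gene whose levels swing with the hour, varied between the groups; the hour of sampling is not given in the sources used here. On chow, Dbp averaged 9.58 FPKM for control, 40.9 for Jnk1, 23.5 for Jnk2 and 15.3 for Jnk1Jnk2, the same order as Alas1 and Por. On high fat it averaged 32.1, 44.5, 46.7 and 46.3 FPKM. Arntl was highest in chow control (3.28 to 4.79 FPKM) and under 1 FPKM in every library of chow Jnk1, high fat Jnk1 and high fat Jnk1Jnk2. High fat Jnk2 replicate 3 stood apart within its group, with Dbp at 21.8 against 57.9 and 60.5 FPKM and the lowest Alas1, Alad and Urod of the group. The part of sampling time in the Alas1 differences was not tested.

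**Figure D5:**
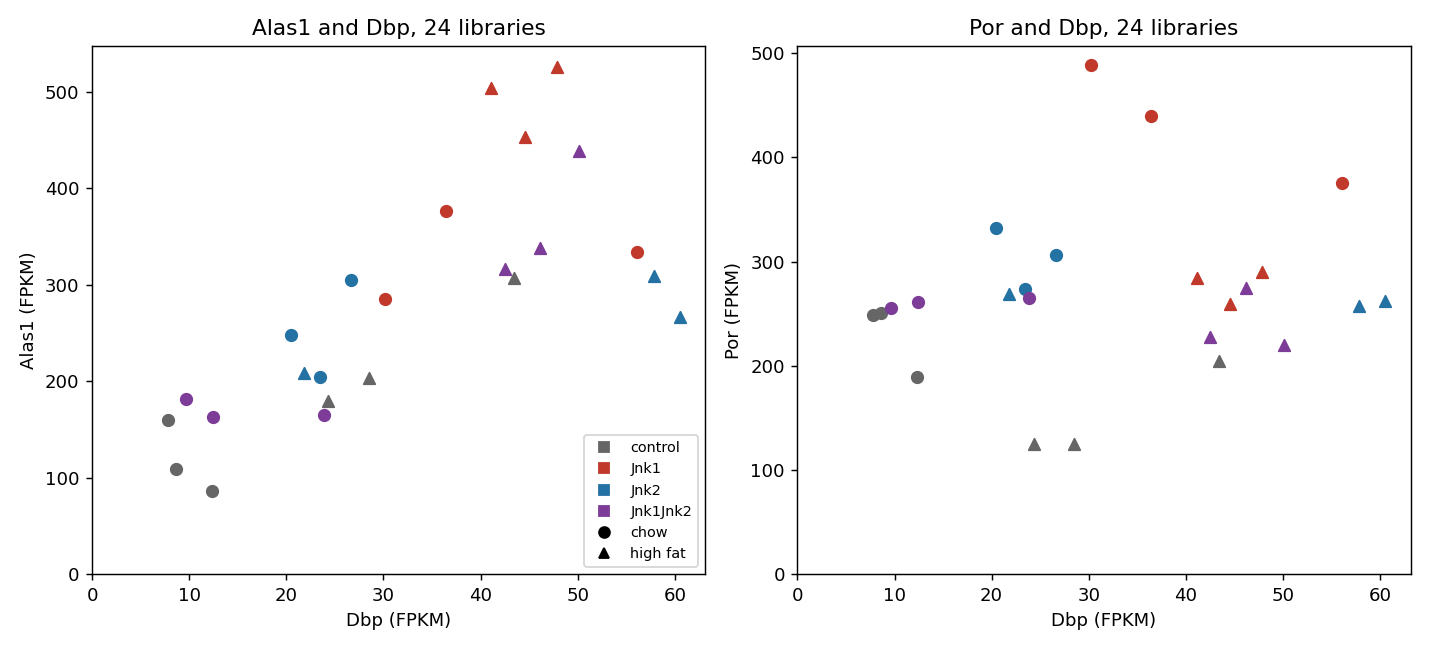
Alas1 (left) and Por (right) against Dbp, all in FPKM on linear axes, in the 24 libraries; colours are genotypes, circles chow and triangles high fat. The chow control libraries had the 3 lowest Alas1 values and Dbp under 13 FPKM. Dbp was also under 13 FPKM in chow Jnk1Jnk2 replicates 1 and 2. On chow the group means of Por and Dbp had the same order, but Por was lowest in high fat control.

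Markers of other liver cells, summed as deposited, were also uneven. The summed level of the 14 macrophage markers on high fat was 646 to 776 FPKM without both kinases and 446 to 593 without JNK2, against 249 to 278 and 248 to 319 on chow, so it was higher in the groups where Hmox1 was higher. It was also 442 to 512 FPKM in high fat control, where Hmox1 was not called. The markers behind the sum were uneven. From chow to high fat in Jnk1Jnk2 most were higher, with Lyz2 averaging 40.4 and 175 FPKM and C1qa 27.3 and 97.3. Slc40a1 (36.0 and 32.2) and Cd163 (4.03 and 2.52) were lower, and Cd163 was lower in Jnk2 too (4.45 and 3.06). On high fat, erythroid markers summed to 231 to 487 FPKM without JNK2 and to 211 to 347 without both kinases, and to at most 271 elsewhere; Slc4a1 was under 0.5 FPKM in every library, and 5 of the 9 markers of that list were found. Alas2 rose from chow to high fat in Jnk2 by 0.87 ± 0.18 (adjusted p = 0.00161, limma-trend). In bulk liver fewer cells of a type and less RNA per cell cannot be told apart, and the part of these cells in the results was not tested.

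Among 17 tested loci for mitochondrial transport and chaperones of heme synthesis, 3 rose and 7 fell in high fat Jnk1Jnk2 against high fat Jnk2, with a median of -0.11 against -0.14 for all loci, of which 15.3% rose and 33.2% fell. Removing the length trend gave 2 that rose and 2 that fell, against 11.1% and 13.2% of all loci. Slc25a38, the glycine carrier that feeds ALAS1, rose by 0.58 ± 0.11 (adjusted p = 0.000513, limma-trend), and 0.53 with the length trend removed. Lonp1, a mitochondrial protease, fell by 0.52 ± 0.10, and by 0.28 with the length trend removed. Of 9 loci for heme breakdown, binding and export, 3 rose and 1 fell (median 0.16), among them the biliverdin reductases Blvra (0.70 ± 0.13) and Blvrb (0.77 ± 0.14), which were 0.29 and 0.34 with the length trend removed and still called. The counts of that list were the same with the length trend removed, but not the genes behind them. Hp was then no longer called (0.33, adjusted p = 0.177, limma-trend). Of 6 electron donors beside Por, 3 rose (median 0.16), or 1 with the length trend removed, with Fdx1, the mitochondrial ferredoxin, at 0.70 ± 0.18 (0.66 with the length trend removed). On chow none of these lists had a call in the same comparison.

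Of 30 liver P450 loci, most of which take electrons from POR, 1 rose and 4 fell in high fat Jnk1Jnk2 against high fat Jnk2, with a median of -0.09 against -0.14 for all loci. Removing the length trend gave 3 that fell and none that rose. Cyp2f2 fell by 1.39 ± 0.12 (adjusted p = 1.63e-06, limma-trend), and by 1.41 with the length trend removed. High fat against chow gave 1 rise and 10 falls in Jnk2, and 2 rises and 17 falls in Jnk1Jnk2, where Alas1 rose. In control, where Alas1 was 0.96 higher as a description, it gave 4 rises and 12 falls, with or without the length trend. The shares of all loci that rose and fell were 19.7% and 6.39% in Jnk2, 30.1% and 26.8% in Jnk1Jnk2, and 10.1% and 6.19% in control. The P450 counts with the length trend removed were 1 rise and 14 falls in Jnk2, and 1 rise and 19 falls in Jnk1Jnk2. Cyp2b9 rose by 5.04 ± 0.65 in Jnk2 and by 5.08 ± 0.65 in Jnk1Jnk2, where it was 4.86 with the length trend removed. Cyp3a11 fell by 2.07 ± 0.29 and Cyp3a25 by 1.09 ± 0.11 in Jnk2. With the length trend removed, Cyp2b9, Cyp3a11 and Cyp3a25 changed by 5.93, -3.49 and -1.12 in control and by 4.87, -2.24 and -1.23 in Jnk2.

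The tested loci closest to Alas1 in profile over the 24 libraries, by root mean square difference of centred log2(FPKM + 1), were Coq10b (0.38), Wee1 (0.40), Nmrk1 (0.40), Slc9a3r1 (0.40) and Ngef (0.41), where the spread of Alas1 about its own mean was 0.65. Those closest to Por were St3gal5 (0.22), Tfrc (0.23), Fbxo31 (0.25), Slc37a4 (0.26) and Ahcy (0.27), where the spread of Por was 0.44. Por ranked 3202nd in closeness to Alas1 and Alad 57th. These are descriptions over libraries that share groups and depth, with no test.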

How the data were processed

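Liver RNA of 24 libraries in 8 groups of 3 was analysed. Per the submitters' processing notes, TopHat, Cufflinks and Cuffdiff were used with mm10, at versions that are not given in the sources used here. FPKM per locus is what the authors deposited, and no column of values lacked a labelled sample. Since FPKM cannot be treated as counts, no test for counts was used. Absolute depth is unknown, and relative depth comes from the step that 1 fragment makes in low FPKM.

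Group means were fitted to log2(FPKM + 1) of the 24 libraries together with limma-trend (limma 3.58.1 under R 4.3.3), which left 16 residual degrees of freedom. The 10562 loci with a mean of at least 1 FPKM, of 19796 above 0, were tested, with Benjamini-Hochberg adjustment within each of 10 contrasts and a threshold of 0.05. Differences are on the log2(FPKM + 1) scale and understate changes of low genes. Transcript lengths are medians of GENCODE vM21 transcripts, known for 96.6% of tested loci; the length trend was removed per library by loess (span 0.5). The test was checked on simulated data that held no length trend, so that check does not cover the trend. Promoters are RefSeq's, matched for 7 of the 9 genes; Hmox1 and Fech are not shown. Tables and figures were made with Python 3.11.15.

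The genes, lists, tests and alternatives were chosen with earlier results of these data known. Named genes are the 9 members, Alas2, called list genes with the smallest p (up to 4 per list and contrast) and the 5 loci nearest to Alas1 and Por; some genes of the lists are not reported here. The alternatives were other pseudocounts, no filter, size factors, quantile normalization, removal of the length trend, array weights, a replicate block, a fit of the compared groups alone, and leaving out each library.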

Additional observations from a re-analysis of the deposited data

Results flagged for a closer look

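Alas1 and Cpox each showed an effect of added JNK1 loss, Jnk1Jnk2 against Jnk2, that differed between the diets by a tested interaction in limma-trend. The interaction was 1.03 for Alas1 (95% interval 0.39 to 1.68), from -0.55 on chow to 0.48 on high fat. It was -0.53 for Cpox (95% interval -0.86 to -0.20), from 0.17 on chow to -0.36 on high fat. The Cpox interaction was -0.28 and not called with the length trend removed (adjusted p = 0.245, limma-trend), nor was it called with size factors. That of Alas1 was 0.71 and not called after quantile normalization. These 2 of 9 genes stood against 28.9% of all tested loci called. Groups of 3 libraries are too small for the test of a library that lies far from its group.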

How the results depend on the processing

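With size factors and with the length trend removed, Alas1 in high fat Jnk1Jnk2 against Jnk2 passed the threshold at 0.63 and 0.74. The count of members called there was 4, with 48.5% of all loci called. It became 2 with the length trend removed (24.3% of all loci) and 2 with only the groups compared (29.1%). Leaving out 1 library gave 2 to 4, with Alas1 at 0.33 to 0.61, called without high fat Jnk2 replicate 1. Replicates 2 and 3 of Jnk1Jnk2 each brought that count to 2. For the diet in Jnk2, array weights gave 5 calls, with 43.3% of all loci called against 26.0% without these weights. In the diet interaction, Alas1 was 0.71 and not called after quantile normalization. Cpox was -0.41 with size factors and -0.28 with the length trend removed, neither called. Urod was called at 0.51 with size factors, and Ppox at 0.40 with size factors and 0.42 after quantile normalization. With the length trend removed, Urod was 0.20 and Ppox 0.23 in that interaction, neither called. The interaction count of 2 (28.9% of all loci) became 1 with the length trend removed (8.67%) and 1 without high fat Jnk2 replicate 3 (19.9%). Leaving out 1 library gave 1 to 3, Alas1 0.88 to 1.18, Urod 0.21 to 0.50 (called without high fat Jnk1Jnk2 replicate 1), Por -0.014 to 0.16 and Hmox1 -0.15 to 0.18. For the diet in control, no filter, size factors and only the groups compared each gave 1 call, and leaving out 1 library 1 to 2. The first 3 of these settings called 8.28%, 18% and 11% of all loci. High fat Jnk2 against control had 3 calls with array weights (26.7% of all loci) and 0 to 1 with 1 library left out, 1 without replicate 3 of either group. High fat Jnk1Jnk2 against control had 2 calls with the length trend removed (34% of all loci) and 2 to 4 with 1 library left out, 2 without Jnk1Jnk2 replicate 2 (41.4%).

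Signs also changed, mostly of uncalled values near 0. With size factors these were Urod 0.0103 for chow Jnk1Jnk2 against Jnk2, Por 0.013 and Hmox1 0.084 for high fat Jnk1Jnk2 against Jnk2, Alas1 -0.11, Ppox -0.097 and Fech -0.13 for the diet in Jnk2, Hmox1 0.11 for the interaction, Ppox -0.022 and Fech -0.044 for the diet in control, and Alad 0.036 and Alas2 0.081 for chow Jnk1Jnk2 against control. After quantile normalization they were Urod 0.012, Ppox -0.074 and Fech -0.067 for the diet in Jnk2, Por -0.23 for the interaction, Ppox -0.0071 and Fech -0.016 for the diet in control, and Alas2 0.066; Urod and Alas2 refer to the comparisons just named. With the length trend removed they were Urod 0.018, Por 0.047, Alas1 -0.091, Ppox -0.13 and Fech -0.14 in those same comparisons, Fech 0.0016 for the interaction, Ppox -0.006 and Fech -0.013 for the diet in control, Ppox 0.0032 for chow Jnk2 against control, Cpox -0.011 and Fech -0.0051 for high fat Jnk2 against control, Alad 0.023 and Alas2 0.082 for chow Jnk1Jnk2 against control, and Uros -0.16 for high fat Jnk1Jnk2 against control. With array weights they were Hmox1 0.053 for high fat Jnk1Jnk2 against Jnk2 and 0.095 for the interaction, Fech -0.0045 for the diet in control, and Alas2 0.031 for chow Jnk1Jnk2 against control.

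Leaving out 1 library, ranges that cross 0 were Uros -0.18 to 0.052, Urod -0.057 to 0.041 and Hmox1 -0.24 to 0.092 for chow Jnk1Jnk2 against Jnk2, and Hmox1 -0.17 to 0.10 for the same on high fat. For the diet they were Alas1 -0.093 to 0.20, Ppox -0.03 to 0.11 and Fech -0.029 to 0.074 in Jnk2, and Ppox -0.053 to 0.17 and Fech -0.058 to 0.057 in control. Against control they were Uros -0.037 to 0.19, Cpox -0.16 to 0.021 and Ppox -0.12 to 0.023 in chow Jnk2, Cpox -0.024 to 0.087 and Ppox -0.18 to 0.0399 in high fat Jnk2, Uros -0.053 to 0.085 and Alas2 -0.056 to 0.073 in chow Jnk1Jnk2, and Uros -0.21 to 0.27 in high fat Jnk1Jnk2. The cause of these changes was not tested.

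No pairing of libraries by replicate number was seen: in 0 of 9 comparisons did all 3 same-numbered pairs correlate over 0.1. With 3 libraries per group this check cannot exclude a pairing. With the replicate block, Alas1 in high fat Jnk1Jnk2 against Jnk2 stayed at 0.48 (adjusted p = 0.0764, limma-trend), 4 members were called there, and no call of a member changed in any comparison. In the chow comparisons with few calls, the share of calls that were higher moved from 17.6% to 33.3% after quantile normalization for Jnk1Jnk2 against control, and, with the length trend removed, from 22.9% to 34.0% for Jnk2 against control and from 20% of 5 calls to 0% of 4 for Jnk1Jnk2 against Jnk2. Absolute depth is unknown, and 3 libraries per group limit the precision.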
